A study of Homo sapiens with 8 samples.

Results

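The genes described here encode 49 proteins of the pre-mRNA splicing machinery, in 4 groups by function. They are 18 heterogeneous nuclear ribonucleoprotein (hnRNP) genes, 12 genes for SF1, U2AF and the SF3 complexes of the U2 snRNP, 12 genes for proteins of the U5 snRNP and the tri-snRNP together with other PRPF proteins, and 7 LSm genes. They were picked by gene name, with earlier results of these data known, out of 58219 genes listed for each library, and all 49 were among the 13129 protein-coding genes with enough counts to be tested. The libraries came from H929 and KMS11, established multiple myeloma (MM) cell lines with the t(4;14) translocation. Cells of either line had been kept for 24 h in ethanol, the solvent, or in 2 µM fluvastatin, a statin that inhibits HMG-CoA reductase. There were 8 libraries, with 2 biological replicates in each of the 4 groups. The model is limited to these lines, and the labels name no other agent or engineered allele. Within a line and between the lines, the p values measure only the spread between these 2 replicates per group. In the test over both lines together, a difference between the responses of the lines also counts as spread.

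Introns are removed by the spliceosome, which is built on each pre-mRNA from small nuclear RNAs and their proteins. The hnRNP proteins coat nascent transcripts and influence which splice sites are used. SF1 and U2AF mark the branch point and the 3′ splice site, and SF3a and SF3b bind the U2 snRNP there. The U4/U6.U5 tri-snRNP then brings in the catalytic core, with PRPF8 at its centre and the helicase SNRNP200. The LSm proteins 2 to 8 form a ring at the 3′ end of U6 RNA, while a related cytoplasmic ring with LSM1 in place of LSM8 takes part in mRNA decay. Plasma cells secrete large amounts of immunoglobulin, and HNRNPLL is known for its part in alternative splicing in lymphocytes and plasma cells.

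Total expected counts per library ranged from 26702515 to 41910446. Protein-coding genes held between 85.2% and 91.4% of them. In the KMS11 fluvastatin group, replicate 1 stood apart from replicate 2, with protein-coding shares of 88.1% and 90.9% and the largest replicate difference of the 4 groups (chi-square per degree of freedom of 37.8, against 9.97 to 18.1). The 8 plasma cell markers summed to between 4500 and 7840 TPM, although CD38 was at most 0.04 TPM in KMS11. The markers of B cells, myeloid cells and erythroid cells were each below 1 TPM in every library, as were 3 of 4 T cell markers, while CD3E ranged from 0.25 to 3.54 TPM. Epithelial markers summed to between 39.4 and 46.3 TPM in KMS11 and were below 1 TPM in H929, in both treatments alike.

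With ethanol, the 49 genes together held 3870 and 4030 TPM in the 2 H929 libraries, a unit that counts a gene's share of all transcripts after scaling for transcript length. After fluvastatin they held 2720 and 2910 TPM, or 71.4% of the ethanol mean. In KMS11 the sum was 6470 and 5990 TPM with ethanol and 4520 and 5300 TPM with fluvastatin, or 78.8% of the ethanol mean. The libraries of the treatments did not overlap in either line. The hnRNP genes made up most of each sum, with 2580 ± 130 TPM in H929 with ethanol and 1830 ± 123 TPM with fluvastatin, and 4210 ± 268 and 3240 ± 450 TPM in KMS11 (SD, n = 2). The SF3 and U2AF genes held 821 ± 12.7 TPM with ethanol and 624 ± 1.31 TPM with fluvastatin in H929, and in KMS11 they held 967 ± 5.03 and 812 ± 34.5 TPM. For the U5 and tri-snRNP genes the sums were 294 ± 5.76 and 201 ± 3.68 TPM in H929, against 566 ± 27.4 and 447 ± 28.1 TPM in KMS11. The LSm genes showed the lowest remaining share in H929, 64.3%, and the highest in KMS11, 86.2%. These sums are descriptions without a test, and on TPM the median of all genes was itself lower with fluvastatin by 0.126 in KMS11 and 0.025 in H929 on the log2 scale. In bulk RNA a lower level in each cell and fewer cells with a high level cannot be told apart.

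**Figure D1:**
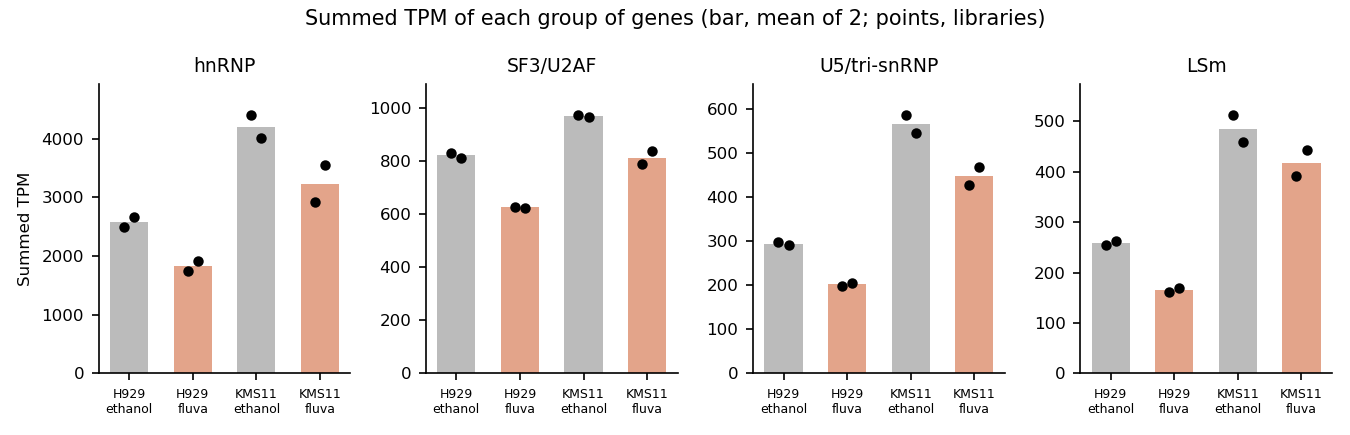
Summed TPM (y axis, from 0) of the hnRNP, SF3/U2AF, U5/tri-snRNP and LSm genes in the 4 groups of line and treatment. Bars are means of 2 replicates and points are libraries. All points with fluvastatin (fluva) lie below those with ethanol of the same line, with 1740 and 1910 TPM against 2490 and 2670 TPM for the hnRNP genes in H929.

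Levels within each group of genes spanned a wide range. HNRNPA1, a shuttling hnRNP that represses splice sites, was the highest of the hnRNP genes with 764 ± 27 TPM in H929 with ethanol, and HNRNPA0 was the lowest with 7.86 ± 0.26 TPM. SF3B2 led the SF3 group in H929 with 176 and 165 TPM, and SF3B1 and SF3B3 led it in KMS11 with 182 and 201 TPM and 191 and 179 TPM. EFTUD2, the GTPase of the U5 snRNP, had the highest level of its group in both lines, with 53.3 and 58.8 TPM in H929 and 183 and 164 TPM in KMS11. PRPF39 had the lowest, with 6.83 and 6.96 TPM in H929. The lowest of the SF3 and U2AF genes in KMS11 was SF3A2, with 3.61 and 3.58 TPM. In H929, U2AF1 was listed lowest, with 12.2 and 9.73 TPM, but with its artifactual copy in the annotation added it had 26.7 and 28.8 TPM, above SF3A2 with 18.9 and 13.0 TPM. Among the LSm genes LSM4 and LSM5 were highest, with 63.2 and 59.9 TPM and 52.1 and 65.8 TPM in H929, and the lowest was LSM3, at 8.27 and 9.61 TPM in H929 and 18.8 and 16.1 TPM in KMS11. The mean transcript lengths of HNRNPA0 and LSM3 are 8726 and 3815 bases, which lowers their TPM. By counts scaled to library size alone (CPM), HNRNPH3 (34.5 and 47.7) and LSM6 (21.7 and 27.4) were lowest of their groups in H929 with ethanol.

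The response of H929 was a fall of most of the 49 genes. Of them, 33 were lower with fluvastatin and 1, HNRNPLL, was higher at an adjusted p under 0.05, while 15 did not pass the test (edgeR's quasi-likelihood test, Benjamini-Hochberg adjustment over all 13129 genes). Among all genes tested in H929, 19.3% were lower and 22.7% were higher by the same test. The lower genes comprised 13 of 18 hnRNP genes, 7 of 12 SF3 and U2AF genes, 9 of 12 U5 and tri-snRNP genes and 4 of 7 LSm genes. The median log2 fold change was -0.47 over the 49 genes, against 0.02 over all genes tested. The LSm genes (median -0.61) and the U5 and tri-snRNP genes (-0.59) had lower medians than the hnRNP genes (-0.44) and the SF3 and U2AF genes (-0.38). Both fluvastatin libraries lay below both ethanol libraries for 41 of the 49 genes and above them for 1 gene, where the same held for 33.5% and 37.5% of all genes tested. Leaving out each library in turn left the median log2 fold change of the 49 genes between -0.531 and -0.459.

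**Figure D2:**
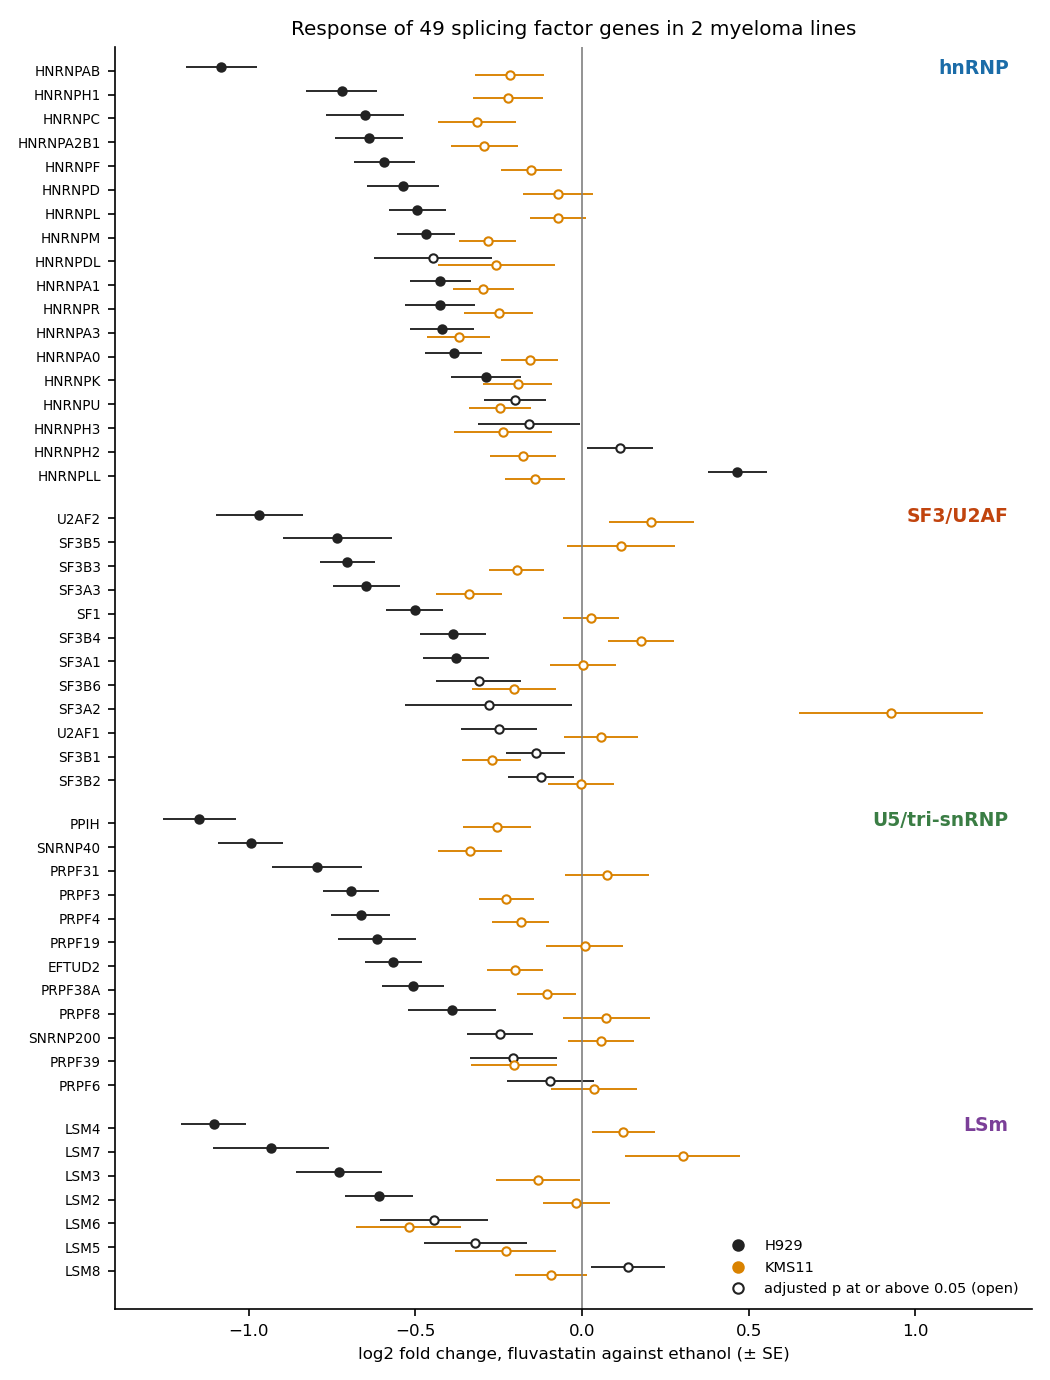
Log2 fold change of fluvastatin against ethanol (x axis, with SE) for each of the 49 genes in H929 (black) and KMS11 (orange), ordered within each group of genes by the H929 value. Filled points passed an adjusted p of 0.05. In H929 all but 3 genes lie left of 0, down to -1.15 for PPIH, whereas KMS11 has no filled point.

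PPIH, a cyclophilin that binds PRPF4 in the U4/U6 snRNP, had the largest fall. Its gene is at chr1:42658335-42676758 in GRCh38. It had 27.9 and 28.6 CPM (counts scaled to library size, with TMM) in the H929 ethanol libraries and 12.8 and 12.7 CPM in the fluvastatin libraries. The log2 fold change was -1.15 ± 0.11 (SE; adjusted p = 4.4e-05 by edgeR's quasi-likelihood test), and the libraries of the treatments were far apart. In KMS11, PPIH had 43.8 and 41.9 CPM with ethanol and 36.0 and 35.9 CPM with fluvastatin, a log2 fold change of -0.25 ± 0.10 that did not pass the test.

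SNRNP40, a WD-repeat protein of the U5 snRNP, went from 87.8 and 97.3 CPM to 47.1 and 45.8 CPM in H929. PRPF31, which joins the U4/U6 snRNP to U5 and is mutated in a form of retinitis pigmentosa, went from 34.7 and 33.0 CPM to 21.2 and 17.9 CPM. Their log2 fold changes were -0.99 ± 0.10 and -0.80 ± 0.13, both past the test and without overlap between treatments. PRPF3, PRPF4, PRPF19, EFTUD2, PRPF38A and PRPF8 also fell, by between 0.39 and 0.69 on the log2 scale. The U5 and tri-snRNP genes that did not pass were SNRNP200, PRPF39 (-0.21 ± 0.13) and PRPF6 (-0.095 ± 0.13). PRPF6 overlapped between the treatments, with 144 and 124 CPM with ethanol and 133 and 118 CPM with fluvastatin.

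LSM4 had the largest fall of the LSm genes in H929. It had 100 and 98.1 CPM with ethanol and 47.3 and 45.1 CPM with fluvastatin, a log2 fold change of -1.105 ± 0.097 (adjusted p = 2.9e-05, edgeR). LSM7 went from 40.3 and 36.3 CPM to 22.4 and 17.8 CPM (-0.93 ± 0.17) and LSM3 from 63.9 and 75.5 CPM to 38.5 and 45.5 CPM (-0.73 ± 0.13). These 3 genes and LSM2 fell, all of them subunits that the U6 ring shares with the cytoplasmic decay ring. LSM8, the subunit found only in the U6 ring, was at 50.8 and 57.5 CPM with ethanol and 55.9 and 63.2 CPM with fluvastatin, which overlapped (0.14 ± 0.11). LSM5 (-0.32 ± 0.15) and LSM6 (-0.44 ± 0.16, adjusted p = 0.051 by edgeR) did not pass either, although both rings share them too. LSM1 of the decay ring also did not pass (-0.33 ± 0.12), so the calls did not sort the genes by ring.

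HNRNPAB, an hnRNP of the A/B type at chr5:178204533-178211163, fell most among the hnRNP genes. Its levels in H929 were 259 and 286 CPM with ethanol and 119 and 139 CPM with fluvastatin (log2 fold change -1.08 ± 0.11, adjusted p = 5.2e-05 by edgeR). HNRNPH1, which binds runs of G, went from 710 and 815 CPM to 458 and 467 CPM (-0.72 ± 0.11). HNRNPC, which binds U tracts and limits the use of cryptic exons, went from 772 and 940 CPM to 509 and 582 CPM (-0.65 ± 0.12). The abundant HNRNPA1 had 1810 and 1930 CPM with ethanol and 1330 and 1450 CPM with fluvastatin (-0.42 ± 0.09). HNRNPA2B1, HNRNPF, HNRNPD, HNRNPL, HNRNPM, HNRNPR, HNRNPA3 and HNRNPA0 also fell, by between 0.38 and 0.64 on the log2 scale. In each of the 4 genes given by library the lower ethanol library was above the higher fluvastatin library.

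HNRNPLL moved the other way in H929. It had 135 and 139 CPM with ethanol and 188 and 192 CPM with fluvastatin, a log2 fold change of 0.47 ± 0.09 (adjusted p = 0.0023, edgeR), again without overlap. HNRNPH2, a close relative of HNRNPH1, had 91.9 and 103 CPM with ethanol and 100 and 111 CPM with fluvastatin (0.11 ± 0.10) and did not pass. HNRNPDL, HNRNPU and HNRNPH3 did not pass either, with log2 fold changes between -0.45 and -0.16, and HNRNPK passed narrowly (-0.29 ± 0.11, adjusted p = 0.05 after rounding).

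U2AF2, the large U2AF subunit that reads the polypyrimidine tract, led the SF3 and U2AF genes. It had 111 and 105 CPM with ethanol and 58.3 and 52.4 CPM with fluvastatin in H929, a log2 fold change of -0.97 ± 0.13 (adjusted p = 0.00032, edgeR). SF3B5, a small SF3b subunit, went from 116 and 102 CPM to 70.4 and 61.1 CPM (-0.73 ± 0.16), and SF3B3, a large scaffold subunit of SF3b, from 572 and 566 CPM to 341 and 358 CPM (-0.70 ± 0.08). SF3A3, SF1, SF3B4 and SF3A1 also fell. SF3B1 and SF3B2 did not pass. SF3B1, which clamps the branch point and is mutated in blood cancers, had 649 and 700 CPM with ethanol and 600 and 626 CPM with fluvastatin (-0.14 ± 0.09), and SF3B2 had a log2 fold change of -0.12 ± 0.10. SF3A2, SF3B6 and U2AF1 were the others that did not pass.

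**Figure D3:**
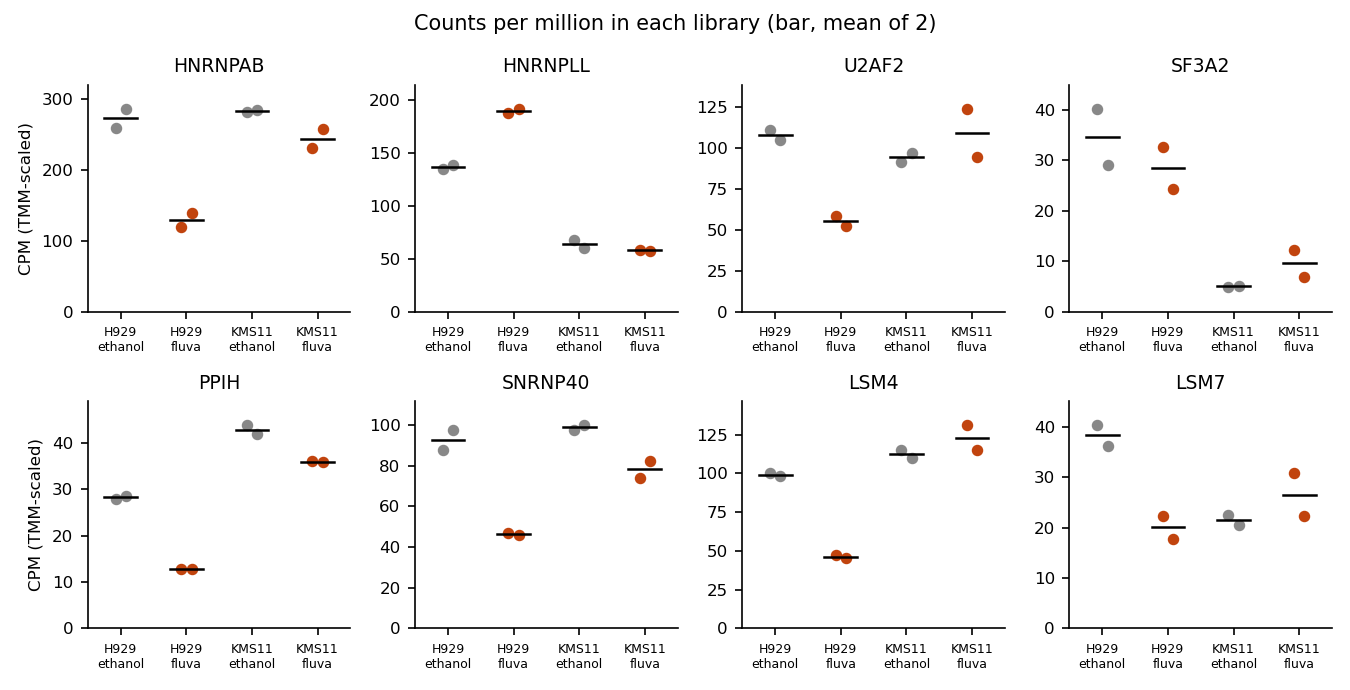
CPM in each library (y axis, from 0) for 8 genes in the 4 groups of line and treatment. Points are libraries, grey with ethanol and red with fluvastatin (fluva), and bars are means of 2. PPIH, SNRNP40, LSM4 and HNRNPAB fall without overlap in H929, HNRNPLL rises there from 135 and 139 to 188 and 192 CPM, and SF3A2 in KMS11 lies at 12.3 CPM or below in all libraries.

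The gene with the lowest H929 value in each group is shown with the 250 bases before its RefSeq start (GRCh38.p14), 5′ to 3′ on the gene's strand, to let the upstream sequences of genes that fell together be compared. Capitals mark the CCAAT box, the E-box sequence CACGTG and the ETS-type sequence CCGGAAG, on either strand. HNRNPAB lies on the plus strand and the sequence is chr5:178204283-178204532, U2AF2 on the plus strand with chr19:55654785-55655034, PPIH on the plus strand with chr1:42658173-42658422, and LSM4 on the minus strand with chr19:18323077-18323326. RefSeq and GENCODE place some starts differently, so that all 250 bases for U2AF2, 88 for PPIH and 36 for LSM4 lie inside the gene as GENCODE 44 gives it, and 0 for HNRNPAB.
HNRNPAB: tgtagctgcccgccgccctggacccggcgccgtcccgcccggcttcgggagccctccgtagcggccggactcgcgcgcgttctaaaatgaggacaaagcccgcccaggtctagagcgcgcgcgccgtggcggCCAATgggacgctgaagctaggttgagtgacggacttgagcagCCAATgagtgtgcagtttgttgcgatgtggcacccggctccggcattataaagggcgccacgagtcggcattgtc
U2AF2: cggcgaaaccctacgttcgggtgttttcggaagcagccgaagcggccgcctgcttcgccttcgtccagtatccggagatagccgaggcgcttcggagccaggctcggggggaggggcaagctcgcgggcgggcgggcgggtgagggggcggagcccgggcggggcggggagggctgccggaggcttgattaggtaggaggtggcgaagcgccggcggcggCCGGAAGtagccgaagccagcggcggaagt
PPIH: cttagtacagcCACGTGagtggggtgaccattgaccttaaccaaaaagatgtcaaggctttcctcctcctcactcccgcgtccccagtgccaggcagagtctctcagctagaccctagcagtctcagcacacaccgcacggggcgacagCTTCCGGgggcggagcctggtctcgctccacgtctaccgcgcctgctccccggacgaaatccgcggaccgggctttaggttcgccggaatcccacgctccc
LSM4: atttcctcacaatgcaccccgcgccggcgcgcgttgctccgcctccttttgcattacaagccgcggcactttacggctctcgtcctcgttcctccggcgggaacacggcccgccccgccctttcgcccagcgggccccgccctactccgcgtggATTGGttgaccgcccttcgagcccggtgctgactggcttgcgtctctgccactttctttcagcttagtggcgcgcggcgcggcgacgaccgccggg

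None of the 3 marked motifs occurred in all 4 sequences. CCAAT was found in HNRNPAB, where it occurred at 118 and 75 bases before the start, and in LSM4 at 96 bases, CCGGAAG in U2AF2 at 30 bases and in PPIH at 101 bases, and CACGTG in PPIH at 239 bases. The GC box GGGCGG, left unmarked, occurred in all 4. Promoters of 44 of the 49 genes were in the RefSeq table. CCAAT was present in 22 of the 44 and in 34.8% of all 15277 promoters of that length. CCGGAAG was in 31.8% of the 44 against 12.0% of all, CACGTG in 20.5% against 7.85%, and GGGCGG in 72.7% against 56.8%. Among genes that were lower in H929, 16 of 30 held CCAAT, 7 held CCGGAAG and 5 held CACGTG, and among the other 14 genes 6, 7 and 4 did. GCGCATGC was in 3 of the 44 promoters (6.82%, against 3.72% of all) and AAGATGG in 2 (4.55%, against 3.33%). Both strands were searched, and a match is a description of the letters and not of a bound site.

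In KMS11, none of the 49 genes passed the test in either direction, where 0.533% of all genes tested were lower and 2.58% were higher. Without adjustment, 15 of the genes were lower and 1 was higher at p under 0.05 (edgeR), beside 8.23% lower and 13.7% higher among all genes tested. By DESeq2, 7 were lower and 1 was higher after adjustment, beside 2.05% and 5% of all genes tested. All 18 hnRNP genes had negative log2 fold changes, between -0.37 and -0.07, with a median of -0.23. The median was 0.015 for the SF3 and U2AF genes, -0.15 for the U5 and tri-snRNP genes and -0.09 for the LSm genes, beside 0.004 over all genes tested. The sign for the SF3 and U2AF genes depended on the scaling, with -0.022 under median-of-ratios scaling and -0.14 on TPM, where the median of all genes was -0.13. Both fluvastatin libraries lay below both ethanol libraries for 29 of the 49 genes, 16 of which were hnRNP genes, and above them for 2. The same held for 26.5% and 26.9% of all genes tested.

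The lowest value in KMS11 was that of LSM6, a subunit of the U6 ring, with 33.8 and 28.9 CPM with ethanol and 20.1 and 23.6 CPM with fluvastatin (-0.52 ± 0.16, adjusted p = 0.11 by edgeR). HNRNPA3 followed, with 266 and 248 CPM with ethanol and 191 and 207 CPM with fluvastatin (-0.37 ± 0.10, adjusted p = 0.071 by edgeR). Neither gene overlapped between treatments. The highest value was that of SF3A2, with 4.98 and 5.09 CPM with ethanol and 12.3 and 6.97 CPM with fluvastatin (0.93 ± 0.28), so that the fluvastatin replicates differed from each other more than the lower of them differed from ethanol. Without KMS11 fluvastatin replicate 2, 12 of the genes were called lower and SF3A2 was called higher, beside 4.84% and 11.2% of all genes tested. Without replicate 1, the library that stood apart, 0 were lower and 0 higher, beside 0.23% and 1.89%, and 7 had p under 0.05 without adjustment (edgeR). The 12 were 8 hnRNP genes (HNRNPA1, HNRNPA2B1, HNRNPA3, HNRNPC, HNRNPH1, HNRNPM, HNRNPR and HNRNPU), SF3A3, SF3B1, SNRNP40 and LSM6. In that fit the remaining fluvastatin library is assumed to vary like those of the other groups.

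Over both lines together, with the line as a term, 16 of the 49 genes were lower and 0 were higher with fluvastatin (edgeR's quasi-likelihood test). Among all genes tested, 3.93% were lower and 6.5% were higher, and at p under 0.05 without adjustment 29 of the 49 genes were lower and 0 higher, beside 14.1% and 17.4% of all genes. DESeq2 gave 21 lower and 0 higher genes, beside 9.3% and 10% of all. The 16 genes were 8 hnRNP genes (HNRNPA1, HNRNPA2B1, HNRNPA3, HNRNPAB, HNRNPC, HNRNPH1, HNRNPM and HNRNPR), SF3A3 and SF3B3, 5 U5 and tri-snRNP genes (PRPF3, PRPF4, SNRNP40, EFTUD2 and PPIH) and LSM6. Their log2 fold changes ran from -0.69 ± 0.17 for PPIH to -0.34 ± 0.09 for HNRNPR. LSM6 (-0.48 ± 0.12, adjusted p = 0.042 by edgeR) was called here although it passed in neither line alone. This count rested on all H929 libraries being present, and without any 1 of them few of all genes tested passed as lower. The median log2 fold change of the 49 genes was then between -0.276 and -0.248, against -0.308 with all libraries. In a fit without the line as a term it was -0.277, and 0 of the 49 genes and 0 of all 13129 genes were lower.

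The responses of the lines differed for 22 of the 49 genes, by a test of the difference itself. In 21 of them the log2 fold change was more positive in KMS11 than in H929, and in 1, HNRNPLL, it was more negative, beside 11.7% and 11.5% of all genes tested (edgeR). The 21 comprised 4 hnRNP genes, 6 SF3 and U2AF genes, 7 U5 and tri-snRNP genes and 4 LSm genes. The median difference over the 49 genes was 0.37 on the log2 scale, and by group it was 0.19, 0.45, 0.47 and 0.59 in the same order. The count was lower with any 1 library left out, most of all without KMS11 ethanol replicate 1, where fewer of all genes passed too. The median difference over the 49 genes then lay between 0.357 and 0.408. It was 0.408 without KMS11 fluvastatin replicate 1, the library that stood apart.

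LSM4 and LSM7 showed the largest differences, both 1.23 on the log2 scale, with SEs of 0.13 and 0.25. In KMS11, LSM4 had 115 and 110 CPM with ethanol and 131 and 115 CPM with fluvastatin, and LSM7 had 22.5 and 20.5 CPM with ethanol and 30.8 and 22.3 CPM with fluvastatin. Neither change in KMS11 passed the test, and the libraries of the treatments overlapped there for both genes. U2AF2 differed by 1.18 ± 0.18, with 91.4 and 97.3 CPM with ethanol and 124 and 94.3 CPM with fluvastatin in KMS11. SF3A2 differed by 1.21 ± 0.37, the least precise of these values, on H929 levels of 40.2 and 29.1 CPM with ethanol and 32.7 and 24.4 CPM with fluvastatin. In U2AF2, SF3A2, LSM4 and LSM7 alike, KMS11 fluvastatin replicate 1 had the highest value of the 4 KMS11 libraries.

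PPIH, PRPF31 and HNRNPAB differed by 0.89 ± 0.15, 0.87 ± 0.18 and 0.86 ± 0.15. HNRNPAB had 282 and 285 CPM with ethanol and 231 and 257 CPM with fluvastatin in KMS11, where SNRNP40 had 97.7 and 99.8 CPM and 73.8 and 82.4 CPM. In both genes the KMS11 libraries did not overlap, and the values lay in the same direction as in H929 but by smaller steps. PRPF31 overlapped between the treatments in KMS11, with 59.4 and 63.5 CPM with ethanol and 71.5 and 58.2 CPM with fluvastatin. HNRNPLL had 67.7 and 60.6 CPM with ethanol and 58.5 and 57.8 CPM with fluvastatin in KMS11, and its difference between the responses was -0.61 ± 0.13.

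The GC content of the genes moved with these values. GC content, the mean over each gene's annotated transcripts, had a median of 44% in the hnRNP genes, 54.2% in the SF3 and U2AF genes, 48.8% in the U5 and tri-snRNP genes and 44.2% in the LSm genes, against 49.2% over all genes tested. Across the 49 genes, Pearson's r between GC content and log2 fold change was 0.73 in KMS11, -0.38 in H929 and 0.72 for the difference. All points of a line share the same 4 libraries, so these are descriptions. Over all genes tested, r was 0.32, -0.11 and 0.29. SF3A2, U2AF2, LSM4 and LSM7 had GC contents of 62.8%, 61.7%, 60.3% and 58.6%.

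**Figure D4:**
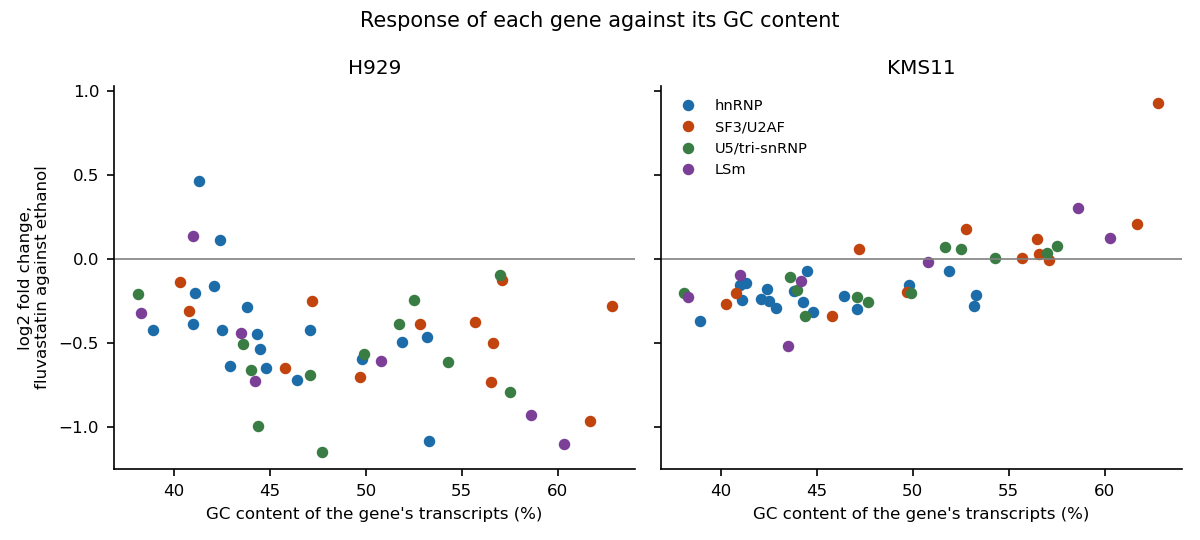
Log2 fold change of fluvastatin against ethanol (y axis) of the 49 genes against GC content in percent (x axis), in H929 (left) and KMS11 (right), coloured by group of genes. In KMS11 the values are higher at higher GC content (r = 0.73), with SF3A2 at the top right, and in H929 they are lower (r = -0.38).

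With a per-library trend on GC content removed, more of the 49 genes, and more of all genes, passed the test. Then 42 of the 49 genes were lower and 1 was higher in H929, 4 were lower and 1 was higher in KMS11, and 34 had a more positive response in KMS11. The shares of all genes tested were 26.7% lower and 26.9% higher in H929, 2.09% lower and 8.57% higher in KMS11, and 20.1% more positive in KMS11. The median log2 fold change became -0.53 in H929 and -0.075 in KMS11. In KMS11 the medians of the 4 groups of genes then were -0.096, -0.072, -0.061 and -0.008, so that the hnRNP genes stood less far below the others. The value of LSM4 in KMS11 was then -0.13 and that of U2AF2 -0.12, where both had been above 0. The median difference between the responses went from 0.37 to 0.49, where that of all genes became 0.06. The largest differences narrowed, from 1.23 to 0.84 for LSM4, 1.23 to 0.92 for LSM7, 1.18 to 0.70 for U2AF2 and 1.21 to 0.66 for SF3A2, and all 4 still passed (edgeR).

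With ethanol alone, 20 of the 49 genes were higher and 10 were lower in KMS11 than in H929, beside 35.6% and 36.4% of all genes tested (edgeR). In either direction that was 61.2% of the 49 genes and 72% of all genes. The median log2 ratio was 0.09 over the 49 genes and -0.02 over all genes tested. On TPM the median of all genes was higher in KMS11 by 0.47, and the 49 genes lay 0.17 above that shift.

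SF3A2, a subunit of SF3a, had 4.98 and 5.09 CPM in KMS11 and 40.2 and 29.1 CPM in H929, a log2 ratio of -2.78 ± 0.28 (adjusted p = 1e-05, edgeR). SF3B2 (342 and 365 CPM against 881 and 824 CPM, -1.27 ± 0.10), SF3B5 (51.5 and 50.1 CPM against 116 and 102 CPM, -1.11 ± 0.16) and SF3B4 (-0.75 ± 0.10) were lower as well, but the value of SF3B4 turned to 0.18 with limma on TPM. SF3B1, SF3B6 and U2AF1 were the SF3 and U2AF genes higher in KMS11. With the GC trend removed, SF3B1 and SF3B6 turned to -0.073 and -0.017.

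PRPF38A, a protein of the precatalytic spliceosome, was the most different in the other direction, with 193 and 186 CPM in KMS11 and 54.9 and 56.6 CPM in H929 (1.76 ± 0.09). PRPF4 (1.05 ± 0.09), EFTUD2, PRPF31 and PPIH were higher in KMS11 too. PRPF19, the ubiquitin ligase of its complex, was lower (-0.81 ± 0.12), as was SNRNP200 (-0.59 ± 0.10). HNRNPH3 (98.9 and 82.9 CPM against 34.5 and 47.7 CPM, 1.15 ± 0.15) and HNRNPDL (0.96 ± 0.18) led the hnRNP genes, and HNRNPLL was lowest (67.7 and 60.6 CPM against 135 and 139 CPM, -1.098 ± 0.09), followed by HNRNPA0 (-0.26 ± 0.09). Of the LSm genes, LSM5 was highest in KMS11 (0.98 ± 0.15), then LSM8 (0.56 ± 0.11), and LSM7 was lowest (-0.83 ± 0.17). The direction turned with limma on TPM for HNRNPA0 (0.23) and with GC and length trends removed for LSM7 (0.099). The ethanol libraries enter both this comparison and the responses.

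**Figure D5:**
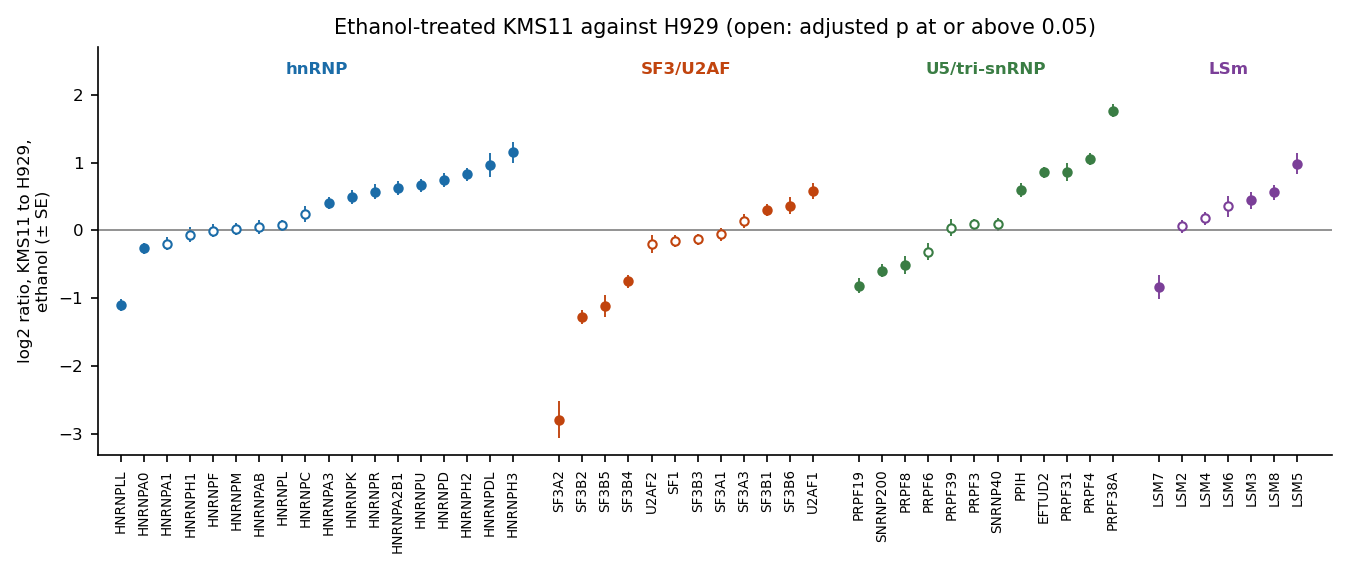
Log2 ratio of KMS11 to H929 with ethanol (y axis, with SE) for each of the 49 genes, ordered within each group. Filled points passed an adjusted p of 0.05. SF3A2 lies lowest at -2.78 and PRPF38A highest at 1.76.

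U2AF1, the small U2AF subunit that reads the 3′ splice site, needs a reservation. GENCODE 44 marks a second copy on chromosome 21 as an artifactual duplication, and RefSeq lists it as U2AF1L5. The 2 copies are near-identical, and RSEM gave the copy between 34.2% and 55.2% of their combined counts. U2AF1 alone had 38.7 and 35.7 CPM with ethanol and 29.3 and 33.3 CPM with fluvastatin in H929 (-0.25 ± 0.12, adjusted p = 0.11 by edgeR). With the copy added it had 60.9 and 65.8 CPM with ethanol and 44.5 and 50.8 CPM with fluvastatin, and the fall passed the test (-0.41 ± 0.10, adjusted p = 0.01 by edgeR). The sum in KMS11 was 116 and 123 CPM with ethanol and 109 and 120 CPM with fluvastatin (-0.06 ± 0.10). Counts on processed pseudogenes of the other genes were small, at most 2.89% of the parent's count, for HNRNPA1.

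The mean transcript length that RSEM gives for a gene changes when the mix of its transcripts changes. It could be tested for 44 of the 49 genes, and 0 passed in H929 and 0 in KMS11 (limma, Benjamini-Hochberg adjustment), beside 0.0412% and 0.0165% of all genes tested. Without adjustment, 11 of the 44 genes in H929 and 6 in KMS11 had p under 0.05 by limma, beside 10.2% and 6.69% of all genes tested. The log2 ratio was within a factor of 1.1 for 43 of 44 genes in H929 and 40 of 44 in KMS11. Its extremes were -0.13 and 0.17 in H929, against -0.46 and 0.24 in KMS11.

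A wider list held 64 gene names related to these proteins, of which 62 could be tested. HNRNPCL1 did not pass the filter, and SF3B14 is an older name of SF3B6. In H929, 22 of the 62 were lower and 3 were higher (edgeR), beside 19.3% and 22.7% of all genes tested, with a median log2 fold change of -0.24. The lower ones included SNRPA1 of the U2 snRNP (-1.08 ± 0.12), KHSRP (-0.99 ± 0.15), PTBP1 (-0.90 ± 0.10) and the SF3b subunit PHF5A (-0.73 ± 0.11). The higher ones were PTBP3 (0.71 ± 0.10), SLU7 (0.51 ± 0.11) and XRN1 (1.096 ± 0.116), the 5′ exonuclease of mRNA decay. In KMS11 0 of the 62 passed by edgeR. Without adjustment 9 were lower and 5 higher at p under 0.05 (edgeR), beside 8.23% and 13.7% of all genes. DESeq2 called 1 lower and 2 higher there, beside 2.05% and 5% of all genes tested. Over both lines 4 were lower, DHX15, PHF5A, PRPF38B and DDX46, or 6.45% of the list beside 3.93% of all genes. The response was more positive in KMS11 for 16 of them and more negative for 3, which were the same PTBP3, SLU7 and XRN1, beside 11.7% and 11.5% of all genes tested.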

How the data were processed

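The authors prepared ribosomal RNA-depleted, stranded total RNA libraries and aligned paired reads to GRCh38. Per the submitters' processing notes, STAR 2.5.2b and RSEM 1.3.0 were used. For each library the authors deposited expected counts per gene, which are not normalized and split fragments that fit several genes, and TPM values, scaled by RSEM for the effective length of each gene. Per the file headers, the deposited gene lengths and effective lengths are averages over a gene's transcripts in bases. FPKM was not used.

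Groups came from the sample labels. Members were looked up by GENCODE 44 symbol through the version-stripped Ensembl identifier. The members, the other gene lists and the motifs were chosen with earlier results of these data known. Named genes were the 3 lowest and 2 highest in H929 in each group, the 2 largest differences between lines, the 2 highest and 2 lowest in the comparison of the lines among those called, the highest and lowest by TPM, any gene called in KMS11 or for transcript length, and U2AF1. Others were named after their values were seen.

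Expected counts were rounded and tested with edgeR 4.0.16 in R 4.3.3, with filterByExpr (minimum count 10, minimum total 15), TMM scaling and the older quasi-likelihood estimate. Benjamini-Hochberg adjustment covered all 13129 protein-coding genes tested, with a threshold of 0.05. Responses within a line, their difference and the comparison of the lines came from 1 fit of 4 group means. The SE is the log2 fold change divided by the square root of F. Lengths were tested with limma 3.58.1 on log2 values. The scripts were tested on simulated data, where the share of false calls was above the threshold within H929 when dispersions varied from gene to gene and few genes were changed, and between the lines when dispersions followed the trend, so that adjusted p values near the threshold are less certain than they read. Within all 4 groups the replicates differed by more than counting error, and this spread, rather than depth, limits the precision. The labels name no batches.

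The alternatives were DESeq2 1.42.0, median-of-ratios and library size scaling, no filter and a filter of 50 counts in a whole group, limma on log2(TPM + 1) for genes of at least 1 TPM, per-library trends with GC content or with GC content and length, a replicate block, no line term, and leaving out each library. The newer quasi-likelihood estimate and the summed U2AF1 counts were chosen after seeing the data.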

Additional observations from a re-analysis of the deposited data

Results flagged for a closer look

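For 22 genes the fluvastatin response in KMS11 was not that in H929 by the interaction test of edgeR's quasi-likelihood fit, which is why each is listed here with its difference in log2 fold change, KMS11 minus H929. Of the hnRNP genes, HNRNPAB (0.86), HNRNPF (0.44), HNRNPH1 (0.50) and HNRNPL (0.42) had a more positive response in KMS11, and HNRNPLL (-0.61) had a more negative one. Of the SF3 and U2AF genes, SF1 (0.53), U2AF2 (1.18), SF3A2 (1.21), SF3B3 (0.51), SF3B4 (0.56) and SF3B5 (0.85) had a more positive response in KMS11. The U5 and tri-snRNP genes were PRPF3 (0.47), PRPF4 (0.48), PRPF19 (0.62), PRPF31 (0.87), PRPF38A (0.40), SNRNP40 (0.66) and PPIH (0.89). The LSm genes were LSM2 (0.59), LSM3 (0.60), LSM4 (1.23) and LSM7 (1.23). GC content moved with these differences (r = 0.72 over the 49 genes), and with the GC trend removed 34 genes had a more positive response in KMS11 and the difference of HNRNPLL was -0.35 (adjusted p = 0.057 by edgeR).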

How the results depend on the processing

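With 2 replicates per group, small changes could be missed in either line. The fall in H929 and the single rise stayed within 1.5 times their counts under every alternative run, with 29 to 38 genes lower when single libraries were left out and 42 with the GC trend removed. In H929 transcript lengths gave 0 genes under each alternative run, and none was run for KMS11. Across both lines the 16 lower genes became 0 with a replicate block, 0 with the block and the GC trend removed, and 0 with no line term. Few of all 13129 genes were lower in these fits too, with 15, 64 and 0, against 516 in the main test. The median log2 fold change of the genes described here was then -0.31, -0.288 and -0.277, against -0.308 in the main test. When single libraries were left out, this median lay between -0.405 and -0.248. Deviations of same-numbered libraries from their group means correlated at 0.298 in H929 and 0.034 in KMS11. The main tests did not pair samples by these numbers, although in H929 same-numbered libraries deviated in part together. The names of the deposited files hold a further number, which sorts the libraries of a line into the same pairs. The block left 38 genes lower in H929, 8 in KMS11 and 25 with a more positive response in KMS11, beside 3044, 476 and 2252 of all 13129 genes. With it HNRNPDL, SF3B6, SNRNP200, LSM5 and LSM6 passed in H929 too (adjusted p between 0.0017 and 0.037 by edgeR). In KMS11 the count of lower genes rose from 0 to 7 with DESeq2, 2 with no filter, 1 with limma on TPM, 4 with the GC trend and 3 with the GC and length trends removed, 8 with the replicate block, 7 with the block and the GC trend, and 0 to 12 when single libraries were left out. The 21 genes with a more positive response in KMS11 became 7 with limma on TPM, 34 with the GC trend, 33 with both trends and 38 with the block and the GC trend removed, and 6 to 20 without single libraries. Between the lines with ethanol, limma on TPM gave 36 higher and 4 lower genes in KMS11, beside 5848 and 1820 of all 10295 genes. With the GC trend removed 17 were higher and 19 lower, beside 4479 and 5457 of all 13129 genes. With both trends removed 16 were higher and 18 lower, beside 4510 and 5482 of all 13129 genes. Leaving out single libraries gave 17 to 22 higher and 9 to 11 lower genes. Among genes called in the main test, the sign turned for SF1 in the difference of the responses (-0.037 with limma on TPM). Between the lines with ethanol it turned for HNRNPA0 (0.23), SF3B4 (0.18) and PRPF8 (0.050) with limma on TPM. It also turned there for SF3B1 (-0.073) and SF3B6 (-0.017) with the GC trend removed. With both trends removed it turned for SF3B1 (-0.15), HNRNPA3 (-0.013) and LSM7 (0.099). Genes not called between the lines in the main test are not listed, although signs turned among them too. For example, U2AF2 was -0.186 by DESeq2 and 0.604 with the GC trend removed, and SNRNP40 was 0.105 and -0.339. U2AF1 in KMS11 became -0.063 with the copy added. With limma on TPM the median of all genes between the lines was 0.466, against -0.02 in the main test. The causes of the changes between settings were not tested.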
